A study of Mus musculus with 12 samples.

Results

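Dio2, Scg5, Fam71f2 and Klk8 are 4 of the 5 transcripts with the largest falls in 3T3 fibroblasts kept in medium from macrophages labelled PHD2cko, relative to medium from WT macrophages, among genes that were called lower, reached a mean of 1 CPM (counts per 1e6 counts) and did not overlap between the media. They are 4 of the 32544 genes in the deposited table, and all 4 are among the 14285 genes that passed the filter on low counts. They were chosen by their measured log2 fold change in fibroblasts, so that difference is given here as a description with no test. The levels in macrophages and the values of related and neighbouring genes were not used in the choice. A comparison of the cell types rests in part on the fibroblast levels that were used, so for the 4 transcripts it too is a description with no test.

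RNA was sequenced from 12 libraries in 4 groups of 3. Bone marrow-derived macrophages (BMDMs) were differentiated for 7 days with 15% L929-conditioned medium, a source of macrophage growth factor, and RNA was taken 24 h after seeding from cells labelled WT or PHD2cko. NIH/3T3 cells, an established mouse embryonic fibroblast line, were starved in 0.1% serum and then kept for 72 h in medium (2% serum, 15% L929-conditioned medium) that BMDMs labelled WT or PHD2cko had conditioned for 24 h. All BMDM donors were mice on C57Bl6/J, and their age is not given in the sources used here. WT donors carried LysMCre alone, and PHD2cko donors carried LysMCre with a conditional allele of PHD2 (Egln1), so that the deletion followed LysM activity, which neutrophils share with macrophages. The oxygen condition of the sequenced cultures is not given in the sources used here. The libraries are called triplicates, with no statement that they came from separate mice or cultures, so p-values measure the spread between these samples, which may be technical.

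PHD2 is an oxygen-dependent enzyme that marks hypoxia-inducible factors for degradation. The 4 proteins belong to unrelated systems. Dio2 encodes type 2 deiodinase, a selenoprotein of the endoplasmic reticulum that converts the prohormone thyroxine to the active thyroid hormone inside the cell. Scg5 encodes the granin-like protein 7B2, a chaperone that the prohormone convertase PC2 needs to mature. Fam71f2 belongs to the FAM71 family, best known from testis, some of whose members bind the small GTPase RAB2. Klk8 encodes neuropsin, a secreted serine protease of the kallikrein family known from skin and brain.

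Some facts of the whole series bear on every value. Library totals ran from 15516465 to 25199770 counts. Among the fibroblast libraries in WT medium, replicate 1 stood apart: its chi-square per degree of freedom over genes was 24.6 and 26.2 against replicates 2 and 3, which differed from each other by 2.34. In PHD2cko medium the 3 pairs gave 6.41 to 6.96. Egln1 stood at 68.3 to 71.6 CPM in BMDMs labelled PHD2cko, above the 54.7 to 55.8 CPM in BMDMs labelled WT. The table counts whole genes, so this level cannot show whether an exon was deleted, and the groups are named by their labels. All 12 fibroblast markers were present in the 3T3 libraries. Their summed level was 26390 to 30780 CPM in WT medium, 35010 to 36540 CPM in PHD2cko medium and 6.71 to 14.3 CPM in BMDMs. In PHD2cko medium 6 of the 12 were called higher and 1 lower, or 58.3% against 15.7% of all tested genes. The summed level of 22 macrophage markers was 29.2 to 33.5 CPM in WT medium, 229 to 1001 CPM in PHD2cko medium and 41350 to 46950 CPM in BMDMs. Of these 22 markers, 21 were called higher in PHD2cko medium, all 22 were above 0 in each of its 3 libraries, and 0 to 2 were at 0 in a WT medium library. Neutrophil markers stayed at or under 0.723 CPM in sum in every library, and B cell markers summed to 4.004 to 5.47 CPM in WT medium, 12.5 to 14.5 CPM in PHD2cko medium and 159 to 202 CPM in BMDMs.

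In the GENCODE annotation of GRCm38, Dio2 (ENSMUSG00000007682.6) lies at chr12:90724552-90738438 on the minus strand, and Scg5 (ENSMUSG00000023236.7) at chr2:113776362-113829121 on the minus strand. Fam71f2 (ENSMUSG00000079652.8) lies at chr6:29279593-29290680 on the plus strand, and Klk8 (ENSMUSG00000064023.4) at chr7:43797577-43803826 on the plus strand. All 4 are protein-coding. Exons of Dio2 overlap those of Gm26512 on the other strand by 100 bases, and exons of Klk8 overlap those of 2310002F09Rik by 382 bases. Whether strand was used in counting is not given in the sources used here, so reads from those stretches cannot be told apart.

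The 4 promoters are shown because the transcripts were chosen for a shared fall. Each is the 250 bases before the RefSeq start site (GRCm38.p6), 5′ to 3′ on the strand of the gene, with the matches to the motifs named after the sequences in capitals.
Dio2, chr12:90739039-90739288, minus strand: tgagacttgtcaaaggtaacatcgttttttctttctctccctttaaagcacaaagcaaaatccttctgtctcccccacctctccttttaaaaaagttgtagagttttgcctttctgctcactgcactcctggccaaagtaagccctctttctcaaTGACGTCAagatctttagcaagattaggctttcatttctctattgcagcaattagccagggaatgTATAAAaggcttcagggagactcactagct
Scg5, chr2:113829092-113829341, minus strand: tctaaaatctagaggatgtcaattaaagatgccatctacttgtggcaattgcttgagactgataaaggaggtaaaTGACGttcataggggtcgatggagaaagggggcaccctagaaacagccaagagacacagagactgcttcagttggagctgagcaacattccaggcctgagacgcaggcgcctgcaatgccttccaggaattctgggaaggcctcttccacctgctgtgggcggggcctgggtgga
Fam71f2, chr6:29280891-29281140, plus strand: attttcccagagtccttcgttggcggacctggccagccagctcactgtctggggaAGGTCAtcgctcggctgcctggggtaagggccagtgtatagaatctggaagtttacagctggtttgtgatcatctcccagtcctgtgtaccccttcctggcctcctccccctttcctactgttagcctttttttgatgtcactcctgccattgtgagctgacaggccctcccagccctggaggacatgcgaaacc
Klk8, chr7:43797327-43797576, plus strand: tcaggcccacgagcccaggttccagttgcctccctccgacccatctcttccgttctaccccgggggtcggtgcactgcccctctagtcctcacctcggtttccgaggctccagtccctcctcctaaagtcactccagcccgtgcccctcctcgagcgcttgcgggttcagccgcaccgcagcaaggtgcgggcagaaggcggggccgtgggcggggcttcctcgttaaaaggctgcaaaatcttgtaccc

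Motifs were searched on both strands from 250 bases before to 50 bases after the RefSeq start, and their share was counted over 32851 windows of that length. No searched motif was held by all 4 promoters. The Dio2 promoter held the cAMP response element TGACGTCA, beginning at base -95, which 1.79% of all windows held, and the TATA box TATAAA at base -30, which 13.6% held. The shorter element TGACG, which lies inside TGACGTCA on both strands, was held by 20.8% of all windows. Scg5 held it at base -175 and, in the opposite orientation or after the start, at bases 20 and 41. Scg5 also held ACGTG, the core of a hypoxia response element, on the opposite strand at base 39, overlapping the match at base 41, as did 19.6% of all windows. Fam71f2 held the nuclear receptor element AGGTCA at base -195, as did 16.3%, and Klk8 held none of the motifs searched. None of the 4 windows held the AP-1 element TGANTCA (7.81% of all windows), the other hypoxia core GCGTG (32.4%), the SMAD palindrome GTCTAGAC (0.213%), the E-box CACGTG (7.15%) or the CArG box (1.63%). G and C made up 41.6% of the 250 bases in Dio2, 52.0% in Scg5, 56.0% in Fam71f2 and 65.2% in Klk8, against a median of 52.4%. The GENCODE start differs from the RefSeq start by -1548 bases in Fam71f2, -30 in Scg5, 0 in Klk8 and 600 in Dio2, counted along the strand with upstream as negative, so the window of Fam71f2 lies inside the gene as GENCODE annotates it.

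Dio2 had the largest fitted fall of the 4 with all libraries, and was the only one with a clear level in macrophages. In fibroblasts in WT medium its 3 libraries held 61, 108 and 51 estimated counts, or 3.10, 3.92 and 2.70 CPM. In PHD2cko medium they held 20, 19 and 21 counts, or 1.03, 1.10 and 1.02 CPM. Every library in PHD2cko medium was below every library in WT medium, and the spread lay almost wholly in WT medium, where replicate 2 was highest. The mean went from 3.24 ± 0.622 CPM (SD, n = 3) to 1.05 ± 0.0447 CPM (SD, n = 3), a fitted log2 fold change of -1.65 (SE 0.174), or 3.13-fold lower. The coefficient of variation in PHD2cko medium was 4.26%, under the 22.4% that counting error alone gives at this depth, so the closeness of those 3 values is no measure of precision.

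Scg5 was covered by few counts and was near the limit of counting in PHD2cko medium. It had 32, 31 and 22 counts in WT medium, or 1.63, 1.12 and 1.16 CPM. In PHD2cko medium it had 10, 3 and 12 counts, or 0.514, 0.174 and 0.581 CPM. The groups did not overlap, replicate 1 was highest in WT medium, and replicate 2 was lowest in PHD2cko medium with only 3 counts. The mean went from 1.31 ± 0.280 CPM (SD, n = 3) to 0.423 ± 0.219 CPM (SD, n = 3), and the fitted log2 fold change was -1.57 (SE 0.391), or 2.97-fold lower.

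Fam71f2 had 21, 24 and 22 counts in WT medium, or 1.07, 0.870 and 1.16 CPM. In PHD2cko medium it had 11, 3 and 9 counts, or 0.565, 0.174 and 0.436 CPM. Again no library in PHD2cko medium reached the lowest in WT medium, and replicate 2 was the lowest. The mean went from 1.03 ± 0.149 CPM (SD, n = 3) to 0.392 ± 0.200 CPM (SD, n = 3), with a fitted log2 fold change of -1.35 (SE 0.397), or 2.55-fold lower.

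Klk8 had 24, 32 and 22 counts in WT medium, or 1.22, 1.16 and 1.16 CPM. In PHD2cko medium it had 14, 8 and 5 counts, or 0.719, 0.463 and 0.242 CPM. The WT medium libraries were close together, with a coefficient of variation of 2.89%. Counting error alone gives 19.6% at this depth, so that closeness is no measure of precision. In PHD2cko medium replicate 3 was lowest, unlike for Scg5 and Fam71f2. The mean went from 1.18 ± 0.0342 CPM (SD, n = 3) to 0.475 ± 0.239 CPM (SD, n = 3), with a fitted log2 fold change of -1.31 (SE 0.392), or 2.48-fold lower.

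**Figure D1:**
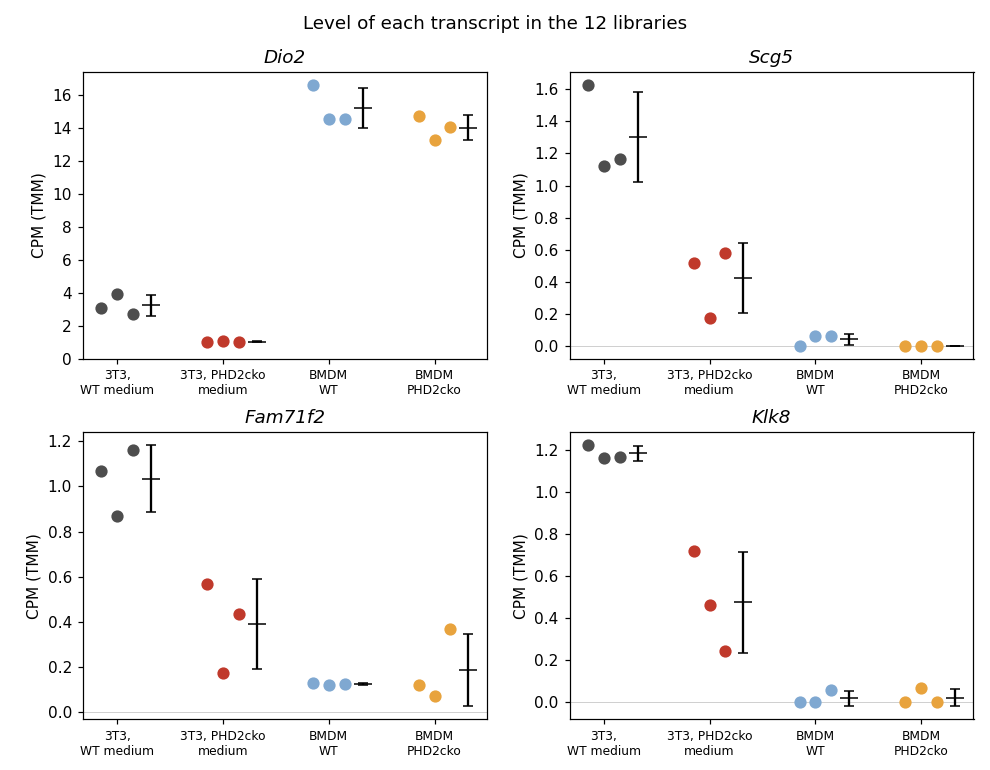
Level of Dio2, Scg5, Fam71f2 and Klk8 in CPM (vertical axis, from 0, with its own scale for each gene) in the 12 libraries, with 3 points per group for replicates 1 to 3 from left to right and the group mean ± SD beside them. For each gene the 3 libraries in PHD2cko medium sit below the 3 in WT medium, and Dio2 alone sits higher in BMDMs, at 13.3 to 16.6 CPM, than in fibroblasts.

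Without WT medium replicate 1, the library that stood apart, the log2 fold changes were -1.67 for Dio2, -1.37 for Scg5, -1.30 for Fam71f2 and -1.27 for Klk8. Leaving out any other fibroblast library gave -1.76 to -1.47 for Dio2, -1.87 to -1.23 for Scg5, -1.69 to -1.03 for Fam71f2 and -1.75 to -0.979 for Klk8. The smallest falls came without PHD2cko medium replicate 2 for Scg5 and Fam71f2, without PHD2cko medium replicate 3 for Klk8 and without WT medium replicate 2 for Dio2. The order of the 4 falls changed with the library left out: without PHD2cko medium replicate 1 it was Klk8 (-1.75), Scg5 (-1.72), Fam71f2 (-1.69) and Dio2 (-1.63).

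**Figure D2:**
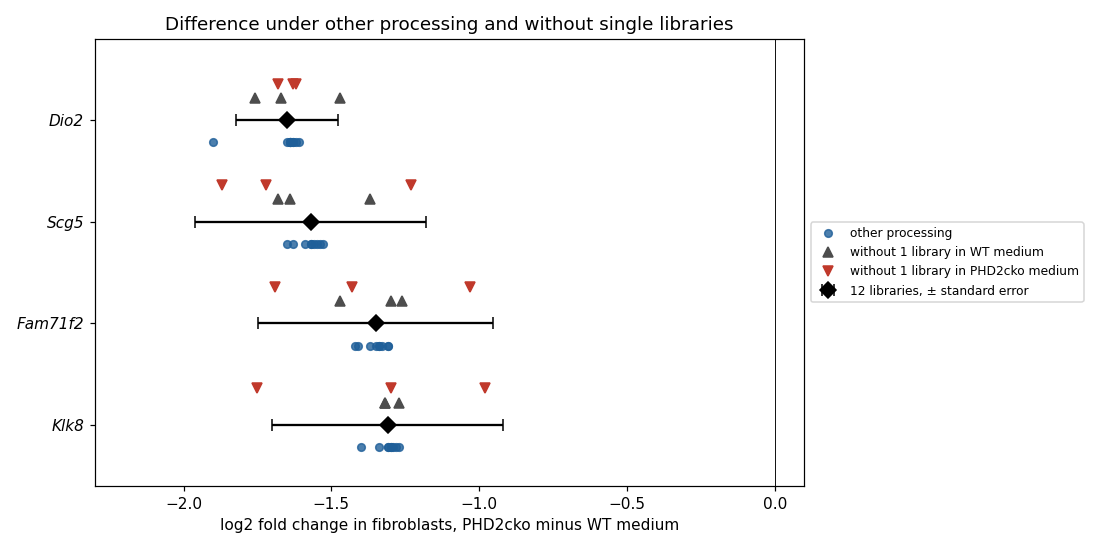
Fitted log2 fold change in fibroblasts, PHD2cko minus WT medium (horizontal axis), of the 4 transcripts from all 12 libraries (diamonds, with the standard error as bars), under other processing (circles) and without 1 fibroblast library at a time (triangles). All values lie below 0, those of Dio2 between -1.90 and -1.47, and those of the other 3 transcripts move more with the library left out than with the processing. The value of -1.90 is that with the macrophage share subtracted, which may be too large.

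The macrophage transcripts in the PHD2cko medium libraries touch Dio2 because BMDMs express it. The summed macrophage markers amounted to 0.0630 to 0.0723% of their BMDM level in WT medium. In PHD2cko medium they amounted to 2.39%, 0.546% and 2.16% in replicates 1, 2 and 3. At the BMDM level of Dio2 these shares would bring 0.305, 0.0696 and 0.276 CPM of the 1.154, 1.225 and 1.134 CPM measured, all over library totals without TMM scaling. With the shares subtracted, the log2 fold change of Dio2 was -1.90, a larger fall than before. For Sepp1, another BMDM transcript, the shares would bring 88.8 and 80.4 CPM in PHD2cko medium replicates 1 and 3. There 59.5 and 56.8 CPM were measured, so the shares are too large for Sepp1 and may be too large for Dio2. For Scg5, Fam71f2 and Klk8 the shares would bring at most 0.00401 CPM, and their values became -1.54, -1.31 and -1.28. What part the macrophage transcripts had in the falls was not tested. In such bulk samples, fewer cells of a type and less RNA per cell cannot be told apart.

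The ranking that gave the 4 transcripts ordered genes by log2 fold change among those called lower at an adjusted p under 0.05. It asked for group means reaching 1 CPM in WT or PHD2cko medium, and for groups that did not overlap. In the fibroblast comparison 15.7% of tested genes were called, 8.93% higher and 6.75% lower, and in 31.9% of tested genes the groups did not overlap. Of the 964 genes called lower, 944 met the other conditions. Dio2, Scg5 and Fam71f2 had ranks 1, 2 and 3, and Klk8 had rank 5, with all libraries. Lmod1, a leiomodin of smooth muscle that starts actin filaments, had rank 4 and is not one of the 4, with -1.33 (8.19 to 3.26 CPM). Just outside were Itih4, an acute-phase protein (-1.31, 1.08 to 0.428 CPM), Tnfrsf11b, which encodes the decoy receptor osteoprotegerin (-1.24, 10.9 to 4.63 CPM), and Plin4, a lipid droplet coat protein (-1.19, 2.40 to 1.05 CPM). These ranks moved with single libraries. Without PHD2cko medium replicate 2, Lmod1 and Tnfrsf11b (-1.41 each) fell more than Klk8 (-1.30), Scg5 (-1.23) and Fam71f2 (-1.03). Without PHD2cko medium replicate 3, Itih4 (-1.71), Plin4 (-1.34), Lmod1 (-1.23) and Tnfrsf11b (-1.19) fell more than Klk8 (-0.979). A further 7 genes called lower fell more than Klk8 but stayed under 1 CPM in both groups. In all, 56 tested genes had a larger fitted fall than Klk8, and 45 of them were not called. Only 33 of the 964 genes called lower fell by at least 2-fold, the 4 transcripts among them.

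**Figure D3:**
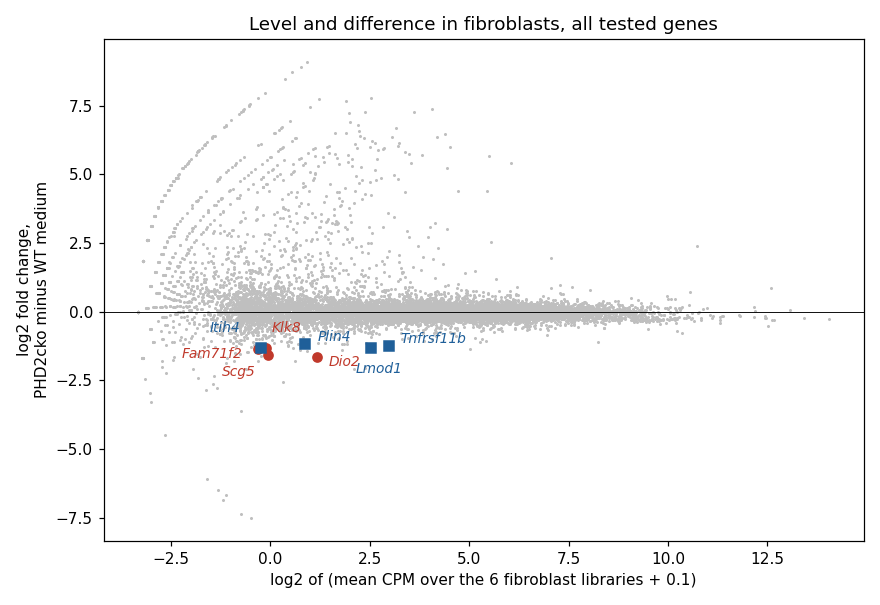
Log2 fold change in fibroblasts, PHD2cko minus WT medium (vertical axis), against the log2 of the mean CPM over the 6 fibroblast libraries plus 0.1 (horizontal axis) for the 14285 tested genes (grey points). Dio2, Scg5, Fam71f2 and Klk8 (red circles) and the neighbouring ranks Lmod1, Itih4, Tnfrsf11b and Plin4 (blue squares) lie between -1.65 and -1.19, at low levels apart from Lmod1 and Tnfrsf11b.

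Levels of different genes were compared per kilobase of annotated exon, scaled so that all genes of a library sum to 1e6. On that scale the transcripts in WT medium stood with Scg5 at 2.64 ± 0.390, Fam71f2 at 2.59 ± 0.405, Klk8 at 2.45 ± 0.0842 and Dio2 at 1.78 ± 0.377 (SD, n = 3). Scg5, Fam71f2 and Klk8 did not differ from one another beyond their spread. Dio2, with 5815 exon bases against 1276 to 1569 in the others, was lowest. Per kilobase of mean transcript length, Dio2 was at 0.868 and Scg5 at 2.24, so the gap depends on the length used. In PHD2cko medium the order was Klk8 at 1.08 ± 0.549, Fam71f2 at 1.07 ± 0.550, Scg5 at 0.939 ± 0.485 and Dio2 at 0.628 ± 0.0265 (SD, n = 3), and no neighbours in that order differed beyond their spread. Between 17.6% and 20.9% of tested genes were lower than a given member in WT medium, and between 7.56% and 11.5% in PHD2cko medium.

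In BMDMs Dio2 was well detected, Fam71f2 was close to the limit of counting, and Scg5 and Klk8 were all but absent. Dio2 had 256, 240 and 239 counts in BMDMs labelled WT, or 16.6, 14.5 and 14.5 CPM, and 243, 194 and 268 counts in those labelled PHD2cko, or 14.8, 13.3 and 14.1 CPM. The labels overlapped. The means were 15.2 ± 1.20 and 14.0 ± 0.751 CPM (SD, n = 3), and the log2 difference, PHD2cko minus WT, was -0.12 (SE 0.105), with an edgeR adjusted p of 0.640 (quasi-likelihood, Benjamini-Hochberg). In this comparison 6.73% of tested genes were called, 3.38% higher and 3.35% lower, and none of the 4 transcripts was among them.

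Fam71f2 had 2 counts in each BMDM library labelled WT and 2, 1 and 7 in those labelled PHD2cko. The log2 difference was 0.64 (SE 0.702, edgeR adjusted p = 0.717), it rested on replicate 3, and without that library it was -0.35. Scg5 had 0, 1 and 1 counts in BMDMs labelled WT and 0 in all 3 labelled PHD2cko. Klk8 had 1 count in 1 library of each label and 0 in the other 4. For these 2 transcripts both groups lay at or under 3 counts, so no fold is given, and 3 counts correspond to 0.188 CPM at most in a BMDM library, over its total without TMM scaling.

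The levels in the 2 cell types are set side by side as a description, since the ranking asked for a mean of 1 CPM in fibroblasts and so favoured transcripts with a level there. Over all tested genes 88.8% were called between the cell types, 42.4% higher in BMDMs and 46.4% lower. Averaged over both media and both labels, the log2 difference of Dio2, BMDMs minus fibroblasts, was 2.97 (SE 0.0959), and that of Fam71f2 was -1.98 (SE 0.381). Scg5 and Klk8 had 2 counts each over all BMDM libraries, so their sizes are read from counts, with intervals for counting error only. Over library totals, Scg5 was 53.3 times as high in fibroblasts (exact 95% interval 14.4 to 446), Klk8 50.9 times (13.8 to 426) and Fam71f2 5.46 times (3.18 to 9.95). The BMDM level of Dio2 was 3.66 times that of fibroblasts in WT medium (3.17 to 4.23) and 11.3 times that in PHD2cko medium (8.75 to 14.9), again over library totals. With TMM scaling, which weighs the cell types differently, the first ratio was 4.52. Cell type, medium and culture time differ together in this comparison and cannot be told apart.

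Of the other thyroid hormone genes, 21 of 28 were tested in fibroblasts, and 2 were called higher and 1 lower, or 14.3% against 15.7% of all tested genes. Their median log2 fold change was 0.08, against 0.00 over all tested genes. Dio2 was the only deiodinase with a measurable level in fibroblasts, since Dio1, which also activates the hormone, had 0 counts in all 6 libraries and Dio3, which inactivates it, had 1 in all. The receptors Thra, at 169 CPM in WT medium and 151 CPM in PHD2cko medium (log2 -0.16, edgeR adjusted p = 0.0514), and Thrb, at 19.9 and 18.8 CPM (log2 -0.08, edgeR adjusted p = 0.660), did not pass the threshold. Klf9, a hormone-responsive transcription factor, was lower, at 86.4 to 89.8 CPM in WT medium and 69.4 to 74.7 CPM in PHD2cko medium (log2 -0.28, SE 0.0556, edgeR adjusted p = 0.0045). The coactivator Ncoa3 was higher, at 24.8 to 29.8 CPM and 33.7 to 38.7 CPM (log2 0.39, edgeR adjusted p = 0.00379). Slc7a8, an amino acid carrier that also moves thyroid hormones, was higher at 7.55, 1.68 and 6.59 CPM in PHD2cko medium than at 0.102, 0.254 and 0.264 CPM in WT medium (edgeR adjusted p = 0.000323). Slc7a8 and Ncoa3 were at 66.6 and 345 CPM in BMDMs labelled WT, and both were highest in replicates 1 and 3, where the macrophage share was highest. With the macrophage share subtracted, Slc7a8 was at 4.71 (4.63 before) and Ncoa3 at 0.23 on the log2 scale (edgeR adjusted p = 0.000428 and 0.0331). In replicates 1 and 3 that share may be too large, since there it exceeds the measured level of Sepp1.

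Dio2 is also a selenoprotein, and of the other genes for selenoproteins and their synthesis 24 of 26 were tested. Sepp1, the secreted selenium carrier, was called higher, at 33.1 CPM in WT medium and 48.8 CPM in PHD2cko medium (log2 0.56, edgeR adjusted p = 0.00174). It stood at 3940 CPM in BMDMs labelled WT. Over library totals the macrophage share would bring 88.8, 20.3 and 80.4 CPM in PHD2cko medium, where 59.5, 47.4 and 56.8 CPM were measured. The share thus exceeds the measured Sepp1 in replicates 1 and 3, and the value with it subtracted (log2 -1.98, SE 0.836, edgeR adjusted p = 0.145) is no measured reversal. Selk, a selenoprotein of the endoplasmic reticulum, was called lower (36.6 and 30.1 CPM, log2 -0.28, edgeR adjusted p = 0.0304). Without WT medium replicate 1, the library that stood apart, Selk was at -0.15 (edgeR adjusted p = 0.0798). Its call was also lost without PHD2cko medium replicates 2 or 3 (edgeR adjusted p = 0.0903 and 0.0972), with library totals and no TMM (0.0573) and with the fibroblast libraries alone (0.156). The 2 calls are 8.33% of the tested list genes, against 15.7% of all tested genes, and its median log2 fold change was 0.00.

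Among the other prohormone processing genes, the system of Scg5, 11 of 20 were tested, and 2 were called higher and 2 lower, or 36.4% against 15.7% of all tested genes, with a median of 0.00. With the fibroblast libraries alone 1 was called. Scg2, which encodes secretogranin II, a cargo protein of secretory granules, fell with 7.99, 6.27 and 8.14 CPM in WT medium and 3.70, 4.45 and 3.78 CPM in PHD2cko medium. The groups did not overlap, the log2 difference was -0.91 (SE 0.167, edgeR adjusted p = 0.00807), and Scg2 had 0 counts in all 6 BMDM libraries. Pam, which amidates peptides, was lower (160 and 142 CPM, log2 -0.17, edgeR adjusted p = 0.0236), and the carboxypeptidase Cpd was higher (117 and 142 CPM, log2 0.28, edgeR adjusted p = 0.0206). Both calls were lost with the fibroblast libraries alone (edgeR adjusted p = 0.147 and 0.0986). The call of Pam was also lost without WT medium replicate 2 or PHD2cko medium replicates 1 or 2, with library totals, with no filter beyond 1 count and with the macrophage share subtracted, and that of Cpd without PHD2cko medium replicates 1 or 3. Pcsk2, which encodes the convertase PC2 that 7B2 serves, was measured at 0.776 and 0.812 CPM (log2 0.04, edgeR adjusted p = 0.959). The convertase Furin was at 120 and 130 CPM (log2 0.12, edgeR adjusted p = 0.0763), and the granin Vgf at 1.39 and 0.962 CPM (log2 -0.52, edgeR adjusted p = 0.277). Pcsk1, the other neuroendocrine convertase, had 0 counts in WT medium and 6, 1 and 5 in PHD2cko medium, at least 4.73-fold higher against a floor of 3 counts over the group (edgeR adjusted p = 0.0237), and had 10 to 29 counts in each BMDM library. The call of Pcsk1 was lost without WT medium replicate 2 or PHD2cko medium replicates 1 or 3 (edgeR adjusted p = 0.061, 0.0763 and 0.0702). The granins Chga, Chgb and Scg3 had 3, 21 and 5 counts over the 6 fibroblast libraries and were not tested.

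For Fam71f2, 3 of 8 related genes were tested. Only Rab2b was called, or 33.3% against 15.7% of all tested genes, and it was higher, at 15.6 and 19.4 CPM (log2 0.31, edgeR adjusted p = 0.0271). The call was lost with the fibroblast libraries alone (edgeR adjusted p = 0.103) and without WT medium replicate 3 or PHD2cko medium replicates 1 or 2. Rab2a, at 162 and 157 CPM (log2 -0.05, edgeR adjusted p = 0.599), and Fam71e1, at 0.706 and 0.606 CPM (log2 -0.23, edgeR adjusted p = 0.690), did not pass. Fam71f1, the nearest relative by name, had 35 counts over the 6 fibroblast libraries and was not tested.

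Klk8 was one of few kallikreins detected in fibroblasts. Of the other 36 kallikrein symbols, 25 had 0 counts in all 6 fibroblast libraries and 32 had at most 3 in every one. Klk10, Klk13, Klk9 and Klk12 had 38, 35, 27 and 17 counts in sum, and Klk8 had 105. Klk1b11, the only other kallikrein tested, had 0 counts in fibroblasts and was lower in BMDMs labelled PHD2cko, at 1.23 against 4.75 CPM (log2 -1.94, SE 0.220, edgeR adjusted p = 0.0011). With the known targets and inhibitors of neuropsin, 7 genes were tested and 1 was called, or 14.3% against 15.7% of all tested genes. It was the adhesion molecule L1cam, which was higher (0.997 and 3.09 CPM, log2 1.65, edgeR adjusted p = 0.00222). L1cam stood at 141 CPM in BMDMs labelled WT, and its log2 difference with the macrophage share subtracted was 0.55 (edgeR adjusted p = 0.132). That share exceeds the measured Sepp1 in PHD2cko medium replicates 1 and 3, so it may be too large for L1cam as well. Fn1, Nrg1, Ephb2, Serpina3n and Serpinb6a, with log2 differences of 0.04, -0.09, -0.19, -0.03 and -0.08, did not pass.

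**Figure D4:**
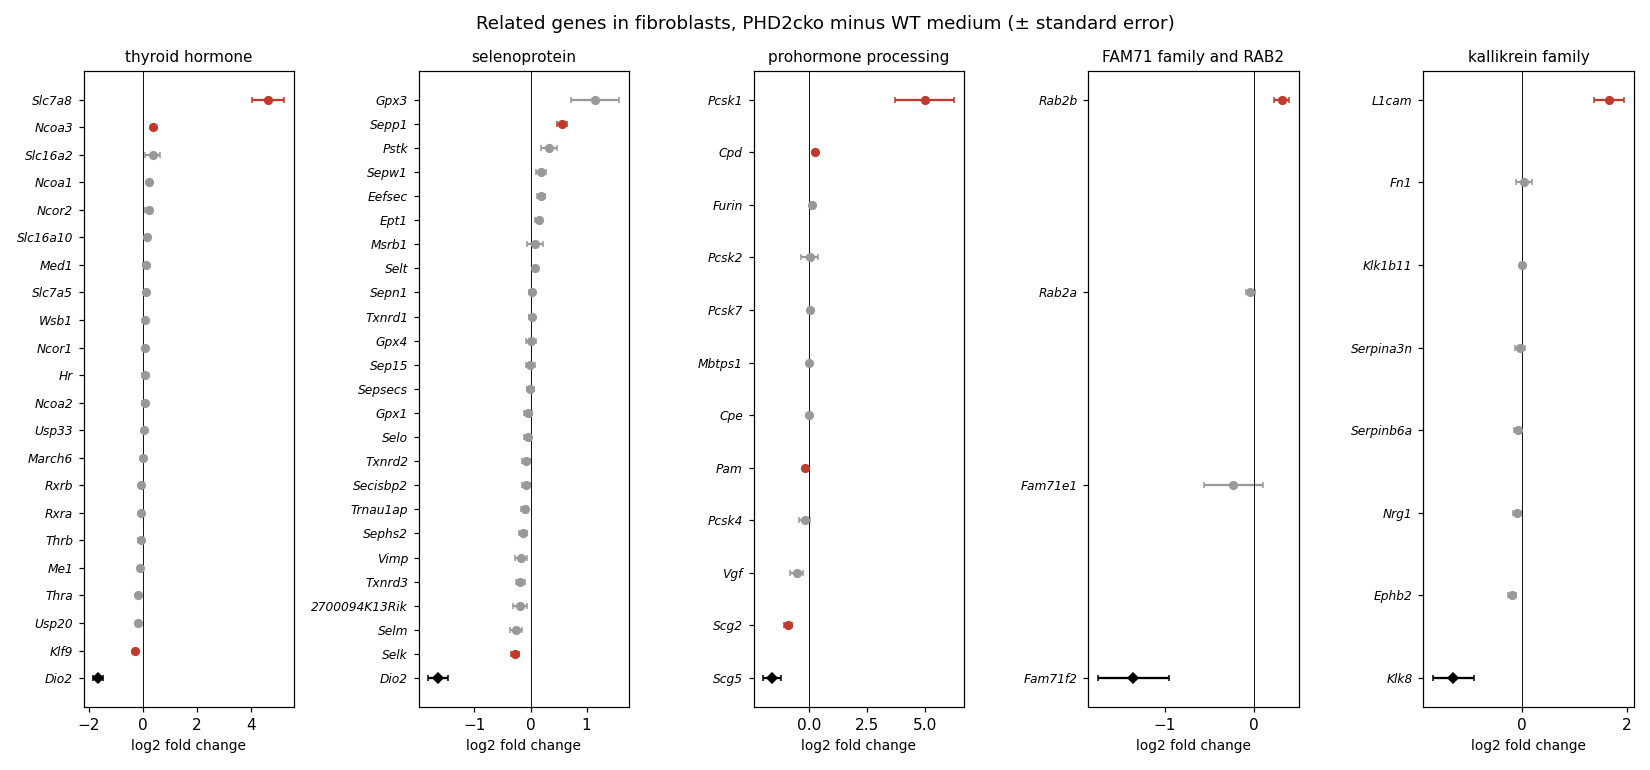
Log2 fold change in fibroblasts, PHD2cko minus WT medium (horizontal axis, a separate scale per panel), with its standard error, for the tested genes of 5 lists. Red circles mark genes called at an edgeR adjusted p under 0.05, grey circles the other genes and black diamonds Dio2, Scg5, Fam71f2 and Klk8. These are the lowest point of every panel, which follows from their choice by this same difference.

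Tested genes near the starts of the 4 transcripts were compared in the same fit. Within 200 kb of the start of Scg5, 4 of 7 annotated genes were in the table and 3 were tested. Grem1, a secreted antagonist of bone morphogenetic proteins that starts 70.5 kb downstream, fell with 407, 620 and 410 counts in WT medium and 251, 209 and 265 in PHD2cko medium. Its level went from 20.7 to 22.5 CPM down to 12.1 to 12.9 CPM, without overlap (log2 -0.78, SE 0.142, edgeR adjusted p = 0.00278). Arhgap11a, which starts 19.5 kb upstream, moved the other way, with a log2 difference of 0.24 (edgeR adjusted p = 0.0236). Its call was lost without WT medium replicate 3 or PHD2cko medium replicates 1 or 3 (edgeR adjusted p = 0.0645, 0.0695 and 0.104) and with the fibroblast libraries alone (0.0978). Gm21596 gave 0.04 (edgeR adjusted p = 0.959).

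Around Fam71f2, 8 of 17 annotated genes were tested and 2 were called, both lower, against 15.7% of all tested genes called and 6.75% called lower. Both lost the call in some fits, Ccdc136 without WT medium replicate 2 or PHD2cko medium replicates 1 or 3, and Atp6v1f without PHD2cko medium replicates 2 or 3 or with the fibroblast libraries alone. These were Ccdc136 (117 kb, log2 -0.27, edgeR adjusted p = 0.0176) and Atp6v1f, a subunit of the vacuolar proton pump (188 kb, log2 -0.32, edgeR adjusted p = 0.0212). Hilpda, a hypoxia-induced lipid droplet protein that starts 7.1 kb upstream of Fam71f2, gave 0.03 (edgeR adjusted p = 0.921), and Rbm28, Impdh1, Calu, Opn1sw and Flnc did not pass either. Near Klk8, 3 of 33 annotated genes were tested and none was called by edgeR: Ctu1 gave 0.01 (adjusted p = 0.968), Siglece 2.86 (adjusted p = 0.0581), and Klk1b11 had no counts. Of the 5 annotated genes near Dio2, none is in the table used here.

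**Figure D5:**
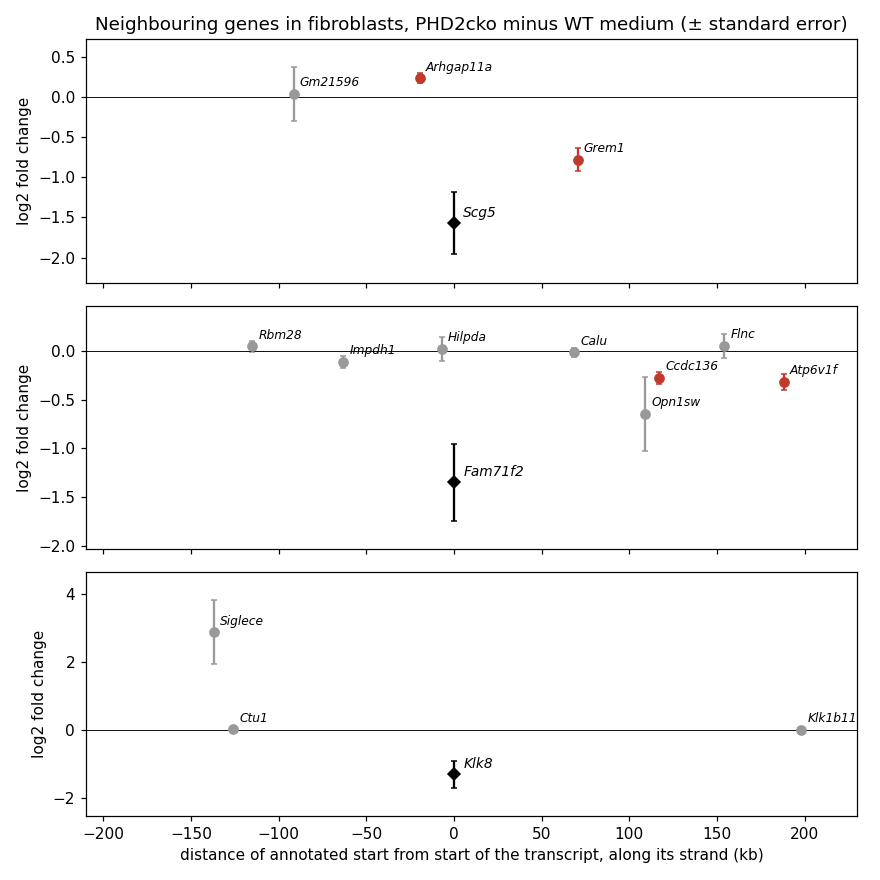
Log2 fold change in fibroblasts, PHD2cko minus WT medium (vertical axis), with its standard error, of tested genes that start within 200 kb of Scg5, Fam71f2 or Klk8 (horizontal axis, kb along the strand of the named transcript). Red marks an edgeR adjusted p under 0.05 and black the chosen transcript, and Grem1 at 70.5 kb from Scg5 has the largest fall among the neighbours called.

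Genes most like each transcript over the 6 fibroblast libraries were ranked by Pearson's r of log2(CPM + 1), as a description, over 12467 or 12468 genes with a mean of at least 1 CPM. Genes that differ between the media share that step, and no function is read from the likeness. For Dio2 they were Podnl1, Osbp2 and Lhx8 (r = 0.995, 0.994 and 0.990), which fell less, by 0.54, 0.44 and 0.45 on the log2 scale. For Scg5 they were Uap1l1, Dusp10 and Rragc (r = 0.998, 0.996 and 0.996). For Fam71f2 they were Emilin2, Ldah and Sowahc (r = 0.995, 0.994 and 0.989), and for Klk8 they were Slc25a35, Ttyh1 and P3h3 (r = 0.993, 0.990 and 0.989). No gene was among the first 3 of more than 1 transcript.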

How the data were processed

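RNA of 6 BMDM and 6 NIH/3T3 libraries was sequenced by the authors as single reads. The authors deposited estimated counts per gene, made with kallisto on GRCm38 and neither normalized nor filtered. The values are whole numbers, and how the estimates were rounded is not given in the sources used here. Groups and replicate numbers come from the sample titles. A further allele that the donors of all groups carried is not reported here.

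The counts were tested with edgeR 4.0.16 in R 4.3.3: filterByExpr with the 4 groups kept 14285 of 32544 genes, followed by TMM, 1 quasi-likelihood fit to all 12 libraries, two-sided tests and Benjamini-Hochberg adjustment over all genes kept (threshold 0.05). CPM are over TMM-scaled totals. Ratios of summed counts over totals, without TMM, have exact 95% intervals, for counting error only. The macrophage share is the summed CPM of 22 markers, without TMM, over that sum in BMDMs of the same label.

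Positions come from GENCODE vM21, in which 31468 symbols matched directly and 506 by an older symbol, and promoters from RefSeq on GRCm38.p6. Named genes are the 4 transcripts, the adjacent ranks, related genes that were called or set out by name, tested neighbours within 200 kb and the 3 genes most alike. The members and the gene lists were chosen with earlier results of these data known. The fit was tested on simulated data. Alternatives were DESeq2 1.42.0, limma 3.58.1 with voom, other size factors and filters, the replicate number as a block, single cell types, libraries left out, genes of macrophage type left out (at least 10 times higher in BMDMs) and, added after seeing the data, the macrophage share subtracted.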

Additional observations from a re-analysis of the deposited data

How the results depend on the processing

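Under other processing with all fibroblast libraries, where it gave a value, Dio2, Scg5, Fam71f2 and Klk8 stayed lower in PHD2cko medium, at -1.90 to -1.61, -1.65 to -1.53, -1.42 to -1.31 and -1.40 to -1.27 on the log2 scale. A filter of at least 10 counts in each library left no value for Scg5, Fam71f2 and Klk8, so depth limits these 3. The differences of all 4 between cell types, given as a description, kept their direction throughout. Genes called in fibroblasts numbered 2240 (1276 higher, 964 lower), 2233 with library totals and no TMM (1573 higher, 660 lower), 912 with the fibroblast libraries alone, and 1260 to 2757 with 1 library left out. The lowest counts came without PHD2cko medium replicates 3 (1260) and 1 (1319). In BMDMs 961 genes became 2534 with those libraries alone and 527 to 664 with 1 left out. Fam71f2 in BMDMs ran from -0.35 to 0.98 with 1 library left out.

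Calls in the gene lists were few and moved. Thyroid hormone went from 3 to 1 without genes of macrophage type and 3 to 5 with 1 library left out. Selenoproteins went from 2 to 1 under library totals, the fibroblast libraries alone, without genes of macrophage type and with the share subtracted, and 1 to 5 with 1 left out. Prohormone processing went from 4 to 1 with the fibroblast libraries alone, and 1 to 5 with 1 left out. FAM71 and RAB2 went from 1 to 0 with those libraries alone, and 0 to 1 with 1 left out. The kallikrein list went from 1 to 0 with the share subtracted or macrophage-type genes removed, and 1 to 2 with 1 left out. Sepp1 was at -1.98 with the share subtracted (edgeR adjusted p = 0.145), which in PHD2cko medium replicates 1 and 3 exceeds the Sepp1 measured. With 1 library left out, Thrb ran from -0.14 to 0.0191, Rab2a from -0.0762 to 0.0353 and Pcsk2 from -0.161 to 0.166, turning sign without WT medium replicate 3 (Thrb), WT medium replicate 1 (Rab2a, Pcsk2) or PHD2cko medium replicate 2 (Pcsk2). The cause was not tested. Scg2, Grem1, Klf9, Ncoa3 and Slc7a8 kept their call wherever they had a value, whereas Selk, L1cam, Pcsk1, Cpd, Pam, Rab2b, Arhgap11a, Ccdc136 and Atp6v1f lost theirs in some fits. Thra gained a call with limma-voom and without WT medium replicate 3, and Furin with library totals, DESeq2, limma-voom, without macrophage-type genes and without WT medium replicates 1 or 3. Per kilobase of mean transcript length, the levels in WT medium were 0.868 for Dio2, 2.24 for Scg5, 1.71 for Fam71f2 and 2.10 for Klk8, and Dio2 in BMDMs labelled WT was at 3.47. In the 250 bases before the start alone, TGACG had 3 matches and ACGTG had 0.

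Over the fibroblast libraries, deviations from the group mean correlated at -0.103 to 0.0524 between the media for the same replicate number. For different numbers they correlated at -0.109 to 0.112. BMDM libraries were not compared in this way, and with so few libraries these values cannot show whether the numbers pair anything. With the replicate block 1953 genes were called in fibroblasts and 815 in BMDMs, Dio2 was at -1.64, and Scg5, Fam71f2 and Klk8 at -1.63, -1.42 and -1.34.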

Other observations

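Dio2 fell in fibroblasts in PHD2cko medium although BMDMs hold more of it. Of the 964 genes called lower, 304 (31.5%) had a higher mean CPM in BMDMs than in fibroblasts in WT medium, against 6814 of all 14285 tested genes (47.7%). A ratio of at least that of Dio2, 4.52 with TMM scaling, was found in 23 of the genes called lower (2.39%), Dio2 included, against 1850 of all tested genes (13.0%). This limit was set at the ratio of Dio2 itself after the values were seen. The WT medium level enters both the call and the ratio, as its denominator, so smaller shares among genes called lower are partly built in. The 5 highest ratios were those of Mamdc2 (26.6, 3.80 to 2.16 CPM, edgeR adjusted p = 0.00167), Foxred2 (19.8, 2.05 to 1.34 CPM, edgeR adjusted p = 0.029), Ahrr, the repressor of the aryl hydrocarbon receptor (17.5, 5.61 to 3.54 CPM, edgeR adjusted p = 0.00266), Tnfrsf1b, a receptor for tumour necrosis factor (16.5, 48.6 to 41.8 CPM, edgeR adjusted p = 0.0326), and P2rx4, an ATP-gated ion channel (14.0, 23.1 to 19.7 CPM, edgeR adjusted p = 0.0173). Macrophage markers rose in the same libraries, and their part in these values was not tested.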
